A study of Mus musculus with 2 samples.

Results

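The endoplasmic reticulum (ER) folding and degradation machinery was followed through 41 genes, chosen as the non-control probes whose gene name in the array files was one of a fixed list of chaperones, thiol enzymes, stress sensors and degradation factors. All 41 were on the array, among 30222 distinct gene names, with 54 of its 39429 gene probes. Of these genes, 39 were measured on both arrays, against 15401 of all gene names. Liver RNA came from a Drp1 knockout and from a wild type. Drp1 (gene Dnm1l) is a GTPase of the dynamin family that pinches mitochondria apart. Knockout and wild type alike were male C57BL/6J mice that had started a lard-based high-fat diet at 4 weeks of age and stayed on it for 24 weeks. The diet held 24% fat, which gave 45% of its energy. There was 1 array per group, and how many mice gave the RNA, and the promoter behind the liver knockout, are not given in the sources used here. The study describes both a 17-hour fast and a 4-hour refeeding, and the labels do not say in which state these livers were taken. The part of feeding state in the values was not tested.

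Proteins bound for secretion fold in the ER, where Hsp70 and Hsp90 chaperones hold unfolded chains, lectin chaperones retain glycoproteins, and disulfide isomerases shape their bonds. When unfolded chains build up, the sensors Ire1 (Ern1), Atf6 and Perk (Eif2ak3) start the unfolded protein response. Ire1 splices the Xbp1 messenger RNA and Atf6 is cut in the Golgi, and both then raise chaperone and degradation genes, while Perk phosphorylates eIF2alpha and favours Atf4 and Chop (Ddit3). Chains that cannot be folded leave through ER-associated degradation (ERAD), in which they are recognised, moved to the cytosol, ubiquitinated and passed to the proteasome. Hepatocytes secrete most plasma proteins and carry much of this machinery.

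Many of these genes share a promoter element that the choice of members did not use. The ER stress response element (ERSE), bound by Atf6 with NF-Y and by spliced Xbp1, reads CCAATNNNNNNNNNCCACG, and its variant ERSE-II reads ATTGG, any base, then CCACG. Both were searched on either strand from 250 bases before to 50 bases after each start, in RefSeq promoters of GRCm38.p6 that matched 34 of the 41 members, 2 of them by a synonym. ERSE stood in 10 of 34 members (29.4%) and in 0.137% of the 27025 genes searched. ERSE-II stood in 2 of 34 and in 0.0444% of the genes searched. The element was defined on genes of this family, BiP and Grp94 among them, so this share is a description. The UPRE of Xbp1, TGACGTGG, stood in 2 members, Txndc5 and Vcp, and in 0.714% of the genes searched. The promoters of Txndc5 and Vcp held neither of the other elements. The matches are shown 5′ to 3′ on the strand that holds them, with the fixed bases in capitals, to let the spacers and strands be compared.
Calr (chr8:84847075-84847093, plus strand): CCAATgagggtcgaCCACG
Pdia6 (chr12:17266491-17266509, plus strand): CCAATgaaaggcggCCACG
Hsp90b1, distal (chr10:86705638-86705656, minus strand): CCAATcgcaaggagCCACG
Hsp90b1, proximal (chr10:86705533-86705551, plus strand): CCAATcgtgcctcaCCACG
Derl3 (chr10:75893242-75893260, minus strand): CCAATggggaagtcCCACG
Syvn1 (chr19:6046532-6046550, plus strand): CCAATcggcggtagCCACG
Canx (chr11:50325800-50325818, minus strand): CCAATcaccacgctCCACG
Creld2 (chr15:88819520-88819538, minus strand): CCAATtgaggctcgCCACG
Hspa5 (chr2:34772025-34772043, plus strand): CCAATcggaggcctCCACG
Dnajc3 (chr14:118937827-118937845, plus strand): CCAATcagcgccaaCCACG
Ero1lb (chr13:12565682-12565700, minus strand): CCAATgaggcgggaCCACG
Dnajb11, ERSE-II (chr16:22857852-22857862, plus strand): ATTGGcCCACG
Herpud1, ERSE-II (chr8:94386377-94386387, plus strand): ATTGGgCCACG

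With 1 array per group no difference could be tested, so levels, log2 differences (knockout minus wild type) and counts past a fold are descriptions of these 2 arrays. Each level is a signal divided by the 75th percentile of signals on its array, and levels are compared between arrays, not between genes. The knockout array had 57.1% of its gene probes well above background and the wild type array 50.5%. Repeated spots of a probe gave a measuring error of 0.14 log2 units for a difference, or 1.102-fold, which leaves out labelling, hybridisation and the spread between animals. Dnm1l itself read 1.75 in the knockout and 2.03 in the wild type, 1.16-fold lower, on a single probe that does not check the knockout because the deleted part of the gene is not given in the sources used here. Hepatocyte markers Alb, Apoa1 and Ttr were above background on both arrays.

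Relative to the 75th percentile, most of the ER genes read somewhat lower in the knockout and few differed by much, whereas under spike-in scaling only Calr, Dnajb11, Sdf2l1 and Hyou1 read lower. Of the 39 measured, 35 (89.7%) had a negative difference, against 60.1% of all measured genes. Their median difference was -0.44, against -0.11 over all genes, and the middle of their range ran from -0.56 to -0.24 (the lower to the upper quartile), against -0.39 to 0.18. By count of genes at least 1.5-fold apart the set was close to the background: 6 of 39 (15.4%) were at least 1.5-fold lower, against 13.4% of all genes, and 0 of 39 were at least 1.5-fold higher, against 8.41%. At least 2-fold, 2 were lower, where 3.65% of all genes were, and 0 were higher, where 2.90% were. In all, 33 of 39 members lay below the all-gene median, and 25 lay between -0.6 and -0.2, a span that held 28.5% of all genes. Since a constant shift of one array moves every gene alike, the gap of -0.33 between the median of the members and that of all genes was the same under scaling to the 75th percentile, to the median or to spike-in spots.

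The absolute direction, unlike this gap, depended on the scaling. Scaled to the E1A spike-in spots, the median of all genes was 0.71 and that of the members 0.38, with 0 members at least 1.5-fold lower and 10 higher. Among all genes past 1.5-fold, 38.5% were higher in the knockout under the 75th percentile, 53.8% after median centring, 50.6% after loess normalization, 21.8% without the filter on dim probes and 98.0% under spike-in scaling. Wherever a gene below is called lower or higher, it is so relative to the 75th percentile.

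**Figure D1:**
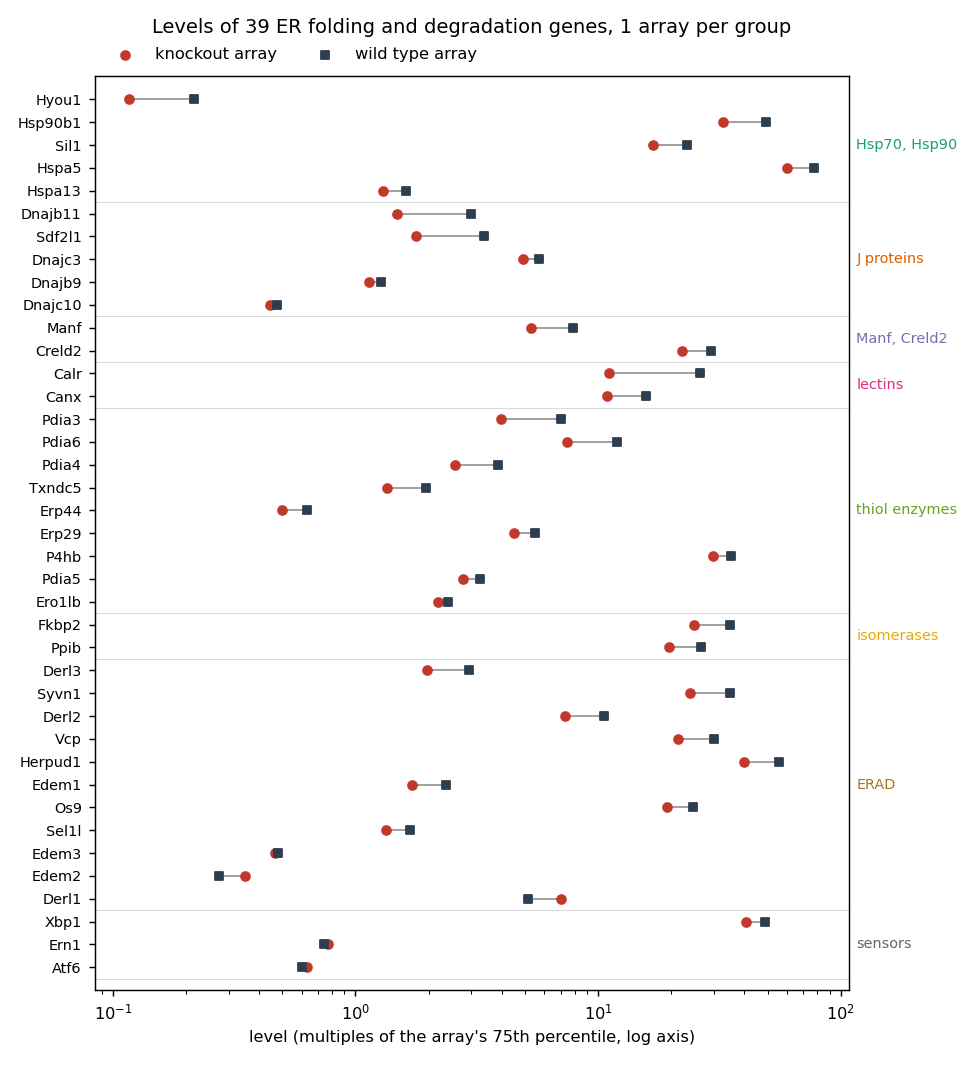
Level of each of the 39 measured genes on the knockout array (red circles) and the wild type array (dark squares), in multiples of the array's 75th percentile on a log axis, grouped by role. The knockout point lies left of the wild type point in 35 genes (in 4 under spike-in scaling), and the gap is widest for Calr, at 11.1 in the knockout and 26.2 in the wild type.

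The Hsp70 and Hsp90 chaperones were all lower in the knockout, with a median of -0.47 over 5 genes, though under spike-in scaling only Hyou1 was. Hyou1, the large Hsp70 relative that recharges BiP with ATP, read 0.116 in the knockout and 0.217 in the wild type, a 1.86-fold difference on a dim probe (chr9:44199354-44199413, mm9, plus strand). Hsp90b1, the ER Hsp90 known as Grp94, read 32.8 in the knockout and 49.1 in the wild type, 1.496-fold lower and so just short of the 1.5-fold limit. Hspa5, which encodes BiP, the central ER chaperone and the usual reporter of the unfolded protein response, read 60.05 in the knockout and 77.8 in the wild type. Its difference of -0.37 was close to the median of the group of genes with the highest signal, -0.30, and came to -0.04 after loess normalization, which removes the dependence of the difference on signal. Sil1, another exchange factor of BiP, was at 16.8 in the knockout and 23.3 in the wild type. Hspa13, an Hsp70-like protein of the ER membrane fraction, was at 1.30 in the knockout and 1.61 in the wild type, and its second probe passed the background limit in the knockout alone.

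J proteins, which deliver clients to BiP and start its ATP cycle, were split. Dnajb11 (ERdj3), which binds unfolded chains directly, was 2.02-fold lower, at 1.48 in the knockout and 2.98 in the wild type. Sdf2l1, which forms a complex with ERdj3, was 1.92-fold lower, at 1.77 in the knockout and 3.39 in the wild type (chr16:17130426-17130485, mm9, minus strand). The partners in that complex were the second and the third lowest of the 39 by log2 difference. The other J proteins stayed near the all-gene median: Dnajc3 (p58IPK) differed by -0.22, Dnajb9 (ERdj4), which aids degradation and holds Ire1 in check, by -0.17, and Dnajc10 (ERdj5), a disulfide reductase, by -0.10. Manf, a small protein that is secreted when ER calcium falls, read 5.31 in the knockout and 7.86 in the wild type. Creld2, a stress-induced protein secreted along with it, was measured by 9 usable spots. These ran from 21.7 to 23.1 (median 22.1) on the knockout array and from 28.5 to 30.4 (median 28.9) on the wild type array. They describe measuring error and not mice, and the Creld2 difference of -0.39 came to -0.13 after loess normalization.

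The lectin chaperones hold newly made glycoproteins while they fold, and they included the lowest member of all. Calr, the soluble calreticulin, read 11.1 in the knockout and 26.2 in the wild type, a log2 difference of -1.24 and 2.36-fold (chr8:87366192-87366251, mm9, minus strand). Only 1.83% of all measured genes had a lower difference than Calr. Its membrane-bound relative Canx, calnexin, differed by -0.53, at 10.9 in the knockout and 15.7 in the wild type. Pdia3 (ERp57), the thiol oxidoreductase that docks on both lectins, was 1.76-fold lower, at 3.99 in the knockout and 7.005 in the wild type (chr2:121263343-121263402, mm9, plus strand).

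Thiol enzymes make and reshuffle disulfide bonds, and the 9 of 11 measured on both arrays were all lower, with a median of -0.34, though all were higher under spike-in scaling. After Pdia3, the lowest was Pdia6 (P5), which also damps Ire1 signalling, at -0.69 over a pair of probes. Pdia4 (ERp72) was 1.499-fold lower, at 2.58 in the knockout and 3.87 in the wild type. Txndc5 (ERp46) differed by -0.53, Erp44, which retrieves Ero1 enzymes to the ER, by -0.34, and Erp29, a redox-inactive relative, by -0.30. P4hb, protein disulfide isomerase itself and a subunit of prolyl 4-hydroxylase, read 29.6 in the knockout and 35.2 in the wild type, and its difference of -0.25 came to 0.03 after loess normalization. Pdia5 differed by -0.22 and the oxidase Ero1lb by -0.14, about the size of the measuring error. The oxidase Ero1l passed the background limit in the knockout but not in the wild type. It read 0.0601 in the knockout and 0.0429 on the wild type array, which bounds the difference only at 1.015-fold. Pdia2, the isomerase of the pancreas, was not well above background on either array. The prolyl isomerases, which turn peptide bonds at proline, went together, with Fkbp2 at -0.49 and Ppib (cyclophilin B) at -0.44.

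Degradation factors had a median of -0.46. In either direction 0 of 11 reached 1.5-fold, where 13.4% of all genes were lower and 8.41% higher by that much. The ubiquitin ligase Syvn1 (Hrd1) read 23.9 in the knockout and 34.9 in the wild type, and its partner Sel1l differed by -0.33. Herpud1, a scaffold of the Hrd1 complex and one of the most stress-inducible ERAD genes, read 39.9 in the knockout and 55.5 in the wild type, a difference of -0.48. Vcp (p97), the ATPase that pulls chains out of the membrane, differed by -0.49. Among the genes that make or read the sugar signal of terminally misfolded glycoproteins, Edem1 was at -0.46 and the lectin Os9 at -0.36. Edem3, however, was at -0.04 and Edem2 at 0.35. The 7 spots of Os9 usable on both arrays ran from 18.4 to 19.5 (median 19.4) on the knockout array. On the wild type array they ran from 22.9 to 25.2 (median 25.03). These spots describe measuring error and not mice, and the Os9 difference came to -0.10 after loess normalization.

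The 3 derlins, membrane proteins of the exit channel, did not share a direction. Derl3 was 1.49-fold lower, at 1.97 in the knockout and 2.94 in the wild type. Derl2 differed by -0.53, with its 3 probes between -0.65 and -0.43. Derl1 was 1.37-fold higher, the highest of the 39, with probes at 0.32 and 0.59. After loess normalization Derl1 stood at 0.61 and was the only member at least 1.5-fold higher, as it was under quantile normalization and in the deposited value table.

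The sensors had the median difference closest to 0 of any role, 0.07 over 3 genes. Atf6 read 0.630 in the knockout and 0.602 in the wild type. Ern1 (Ire1) read 0.774 in the knockout and 0.739 in the wild type on the probe of its RefSeq transcript, and both differences, 0.07 each, lay within the measuring error. Of 3 further Ern1 probes, designed on other transcript models, 0 passed the background limit in the wild type. One of them, at 0.129 in the knockout and 0.0733 in the wild type, was at least 1.75-fold higher in the knockout, 1 gave no bound above 1, and 1 was below background on both arrays. Xbp1 read 40.5 in the knockout and 48.6 in the wild type, a difference of -0.26 that came to 0.04 after loess normalization. Its single probe lies at position 1740 of the transcript and does not tell the spliced from the unspliced form, so Ire1 activity was not measured here.

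**Figure D2:**
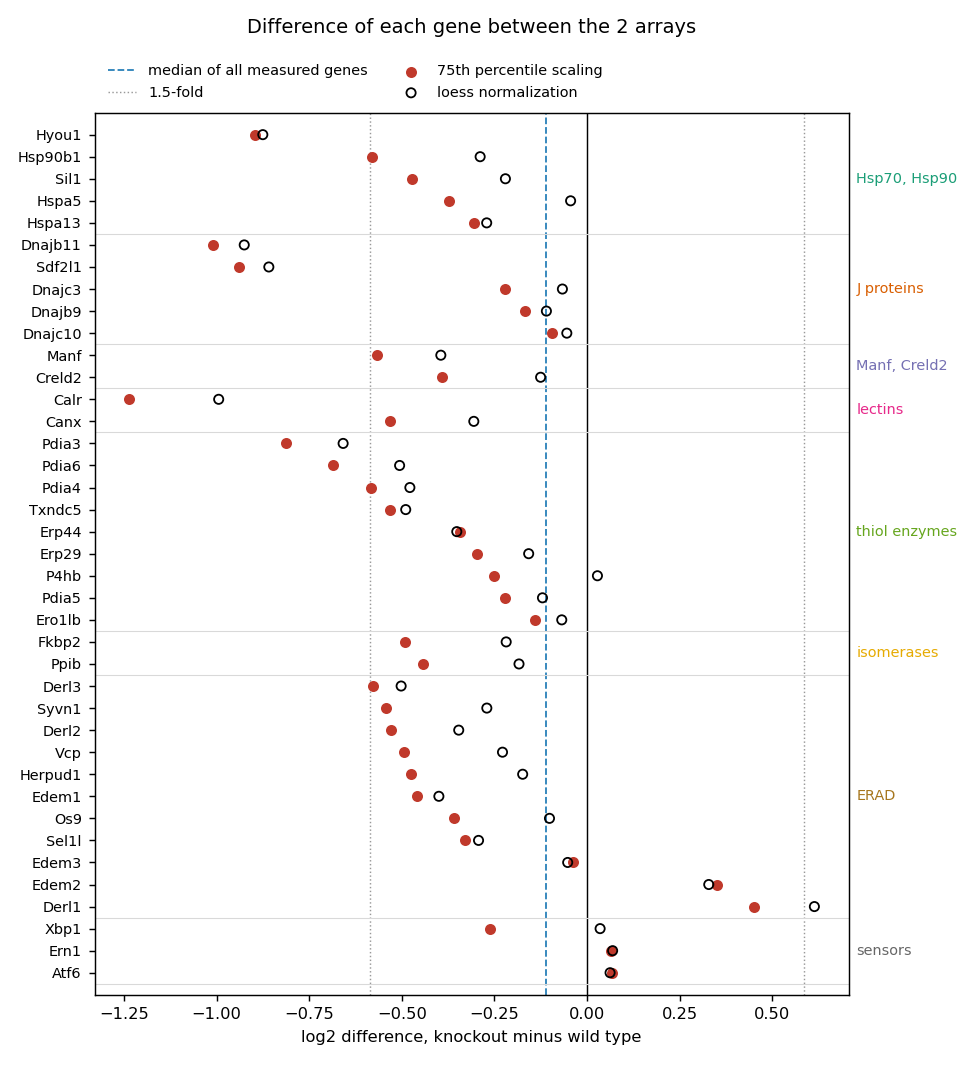
Log2 difference (knockout minus wild type) of each measured gene by role, after scaling to the 75th percentile (red) and after loess normalization (open circles). Dotted lines mark 1.5-fold and the dashed line the median of all genes, -0.11. Calr, Dnajb11, Sdf2l1, Hyou1 and Pdia3 lie beyond the lower 1.5-fold line on both scales, though not under spike-in scaling, and Derl1 passes the upper line after loess normalization.

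Part of the shift went with signal strength. Sorted by mean level into 10 groups, all genes had medians of -0.25 in the dimmest group, 0.02 in the third and -0.30 in the brightest, and 11 of the 39 members stood in the brightest group, 23 in the brightest 3. Set against the median of its own group, 33 of 39 members were still lower, with a median of -0.19. The 6 that were not were Derl1, Edem2, Atf6, Ern1, P4hb and Xbp1. After loess normalization the median of the members was -0.22 and that of all genes 0.004, again with 33 of 39 members below the all-gene median and 5 at least 1.5-fold lower. Across the members the difference and the mean log2 level had r = -0.26 (39 genes of the same pair of arrays, not independent replicates). The readings of Hspa5, P4hb, Xbp1, Creld2, Os9, Ppib and Dnajc3 lay within the measuring error of the median of their groups. So did those of Pdia5, Dnajb9, Ero1lb, Dnajc10, Edem3, Atf6 and Ern1, while Calr differed from its group median by -1.02.

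**Figure D3:**
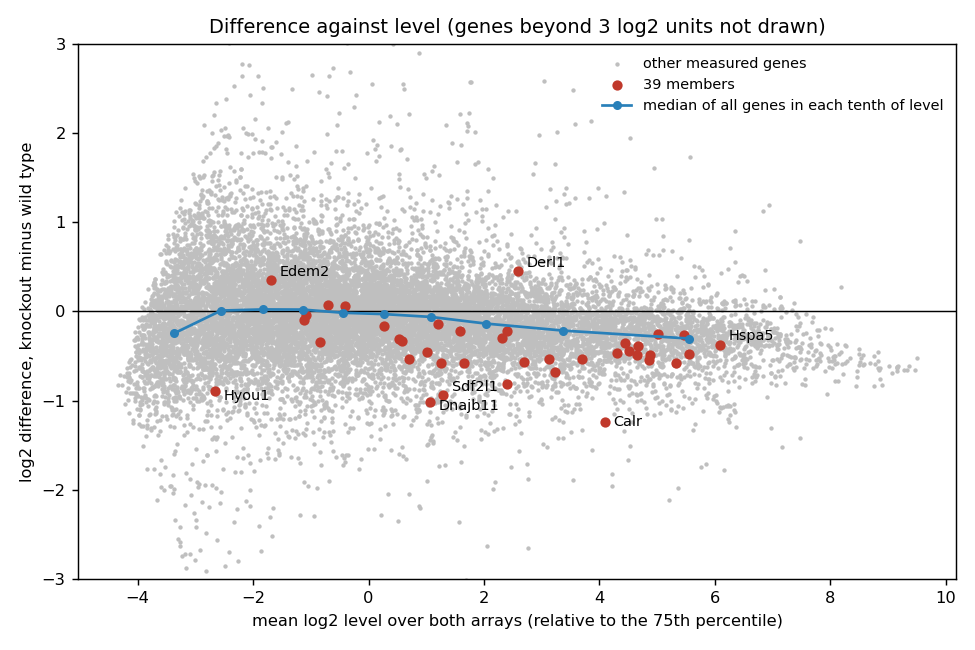
Log2 difference against mean log2 level for all measured genes (grey), the 39 members (red) and the median of all genes in each of 10 groups by level (blue). The blue line falls to -0.30 in the brightest group, and 33 of the 39 members, on the 75th percentile scale, lie below the median of their own group.

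Other values of the samples moved alongside. Markers counted as higher or lower were at least 1.5-fold apart, where 8.41% of all genes were higher and 13.4% lower. Summed levels of marker lists take the linear mean of all probes of each gene, dim ones included, and so are not sums of the single-gene levels, which average measured probes on the log2 scale. Of 10 hepatocyte markers, 6 were at least 1.5-fold lower in the knockout and 1, Cps1, was higher, with a median of -0.62 and a summed level of 3436 in the knockout and 5207 in the wild type. Stellate cell and fibroblast markers were at least 1.5-fold higher in 7 of 10 and lower in 1, with a summed level of 71.3 in the knockout and 48.0 in the wild type. Pancreatic acinar markers, of another secretory cell type, summed to 4.61 in the knockout and 4.48 in the wild type. Of 12, 4 were measured on both arrays, among them Amy2a5, at 2.78 in the knockout and 2.69 in the wild type. Ctrb1, also measured on both, was 1.84-fold lower in the knockout. Cela2a was above background in the wild type alone and Cela1 in the knockout alone. The other 6, with Cpa1, Cpb1 and Pnlip, were below background on both. Neutrophil markers summed to 3.86 in the knockout and 6.40 in the wild type, with 4 of 6 lower. Macrophage markers summed to 96.9 in the knockout and 79.2 in the wild type, with 3 of 9 at least 1.5-fold higher and 0 lower. By sign, 6 had a difference above 0 and 3 below it. T and NK cell markers summed to 11.1 in the knockout and 13.2 in the wild type, with 2 of the 5 measured on both arrays higher, 1 lower, and Cd8a and Klrb1c below background on both. Endothelial markers summed to 38.5 in the knockout and 43.5 in the wild type, with 3 of 8 at least 1.5-fold higher and 0 lower. By sign, 5 had a difference above 0 and 3, Kdr, Stab2 and Clec4g, below it. Bile duct markers summed to 1.11 in the knockout and 0.575 in the wild type, with 2 of 3 higher and Epcam below background on both. Adipocyte markers summed to 2.64 in the knockout and 6.76 in the wild type. Of these, Cfd read 0.126 in the knockout and 4.23 in the wild type, 33.6-fold lower. Fabp4, the only other one measured on both arrays, read 2.45 in the knockout and 2.43 in the wild type. Adipoq, Plin1, Lep and Retn were below background on both. Skeletal muscle markers summed to 0.128 in the knockout and 7.42 in the wild type, where 7 of 8 were above background on the wild type array alone. The part of these cell types in the ER values was not tested, nor was that of signal strength or scaling in the marker values. The brightest group of genes had a median of -0.30, and spike-in scaling added 0.82 to every log2 difference. In whole-liver RNA, fewer hepatocytes and less RNA per hepatocyte also cannot be told apart.

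Of the genes, 7 had several probes measured on both arrays, and these show how far a gene's value depends on the probe. Both probes of Dnajb11, on separate transcript models, were lower, at -0.79 (chr16:22872067-22872126, mm9) and -1.24 (chr16:22879612-22879671, mm9). Those of Pdia6 gave -0.74 and -0.63. Dnajb9 gave -0.44 on its upstream probe and 0.10 on its downstream probe, and Dnajc10 gave -0.40 and 0.21, so neither gene had a settled sign. Erp29 ran the other way, at -0.16 upstream and -0.43 downstream. Over 2289 transcripts with probes at least 100 bases apart, the downstream probe differed from the upstream one by a median of -0.09, with a median absolute gap of 0.26, against gaps of 0.08 to 0.62 in the 6 members among them. A value from a single measured probe carries an error between probes that is wider than the spot error. Of the 39 measured members, all but these 7 have such a value.

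**Figure D4:**
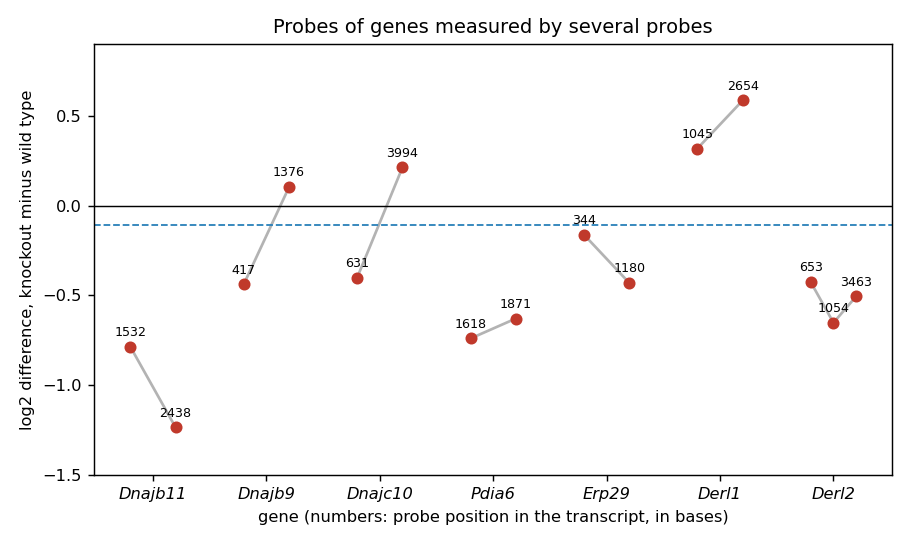
Log2 difference (knockout minus wild type) of each probe of the 7 genes with several measured probes, in order along the transcript, with its position in bases. The dashed line is the median of all genes, -0.11. The probes of Dnajb9 and Dnajc10 lie on both sides of 0, while those of Dnajb11, Pdia6, Erp29 and Derl2 all lie below it and those of Derl1 above it.

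The rest of the pathway was set beside these genes through lists of non-members. Of 11 measured genes of the Perk, Atf4 and Chop arm, 8 were higher in the knockout by 1.5-fold or more and 0 lower, where 8.41% and 13.4% of all genes were, with a median of 0.82. The 4 furthest apart were Atf3, Nupr1, Trib3 and Asns, at 13.7-fold to 47.8-fold higher, while the eIF2alpha phosphatase subunits differed in sign, with Ppp1r15a 1.76-fold higher and Ppp1r15b at -0.50. Perk itself (Eif2ak3) was 1.58-fold higher, at 0.933 in the knockout and 0.590 in the wild type, the only one of 12 other sensor and processing genes past 1.5-fold. Atf6b, the relative of Atf6, was at 0.26. The site-1 protease Mbtps1, which cuts Atf6, was at -0.31.

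Non-member chaperones, isomerases and retrieval receptors had a median of -0.07 over 19 genes. Of these, 2 were at least 1.5-fold lower and 1 higher, where 13.4% and 8.41% of all genes were. Cdnf, the paralog of Manf, was 6.40-fold lower, at 0.0519 in the knockout and 0.332 in the wild type, where the lowest level above background on the knockout array was 0.0368. Cnpy3, a co-chaperone of Grp94 for Toll-like receptors, was 1.86-fold lower and the cyclophilin Ppic 1.71-fold higher. Of 11 other oxidoreductases 3 were at least 1.5-fold lower and 1 at least 1.5-fold higher, against those same shares of all genes. Pdilt, known as an isomerase of the testis, was 2.61-fold lower, the sulfhydryl oxidase Qsox1 1.79-fold and the vitamin K reductase Vkorc1 1.65-fold, while the peroxidase Gpx8 was 1.79-fold higher. Among 8 genes of glycoprotein quality control and export the median was -0.34, and only Uggt1, the folding sensor that returns glycoproteins to the lectin chaperones, passed 1.5-fold, at 0.976 in the knockout and 1.54 in the wild type. The 18 other ERAD genes had a median of 0.04, with 1 past 1.5-fold, the ER ubiquitin ligase Trim13 at 2.00-fold higher.

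**Figure D5:**
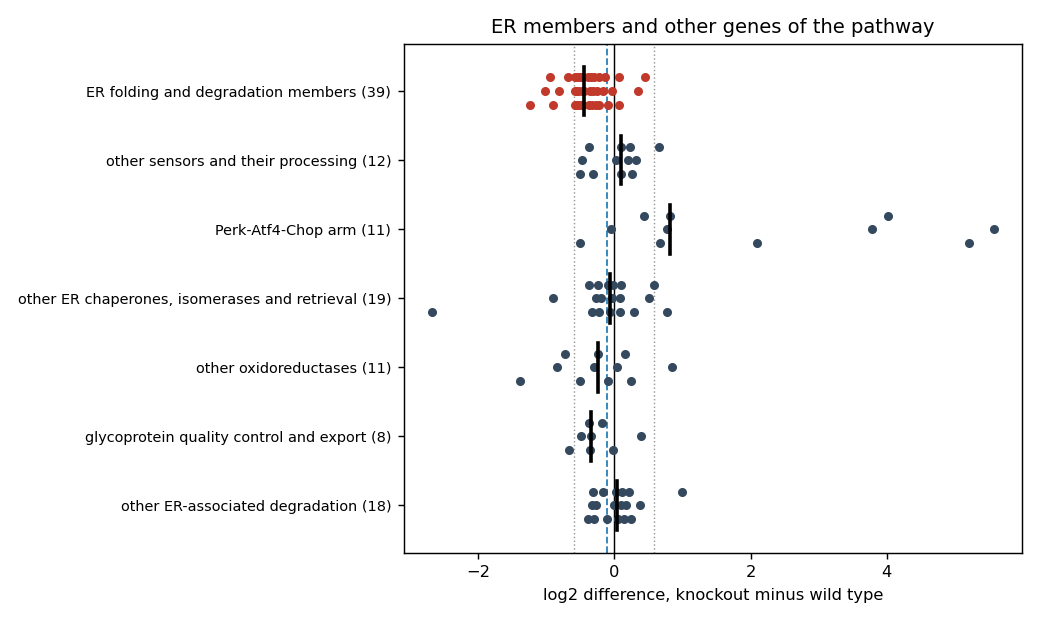
Log2 difference (knockout minus wild type) of the 39 members (red) and of 6 lists of other genes of the pathway (dark), with the number of measured genes in brackets. Black bars are medians, the dashed line is the median of all genes and dotted lines are 1.5-fold. The medians run from -0.44 in the members to 0.82 in the Perk, Atf4 and Chop arm.

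The ERSE matches printed near the opening lay between 26 and 212 bases before the start. Of the ERSE-II matches, that of Herpud1 lay 42 to 52 bases before the start and that of Dnajb11 lay after it. The 12 members with ERSE or ERSE-II had a median difference of -0.54, from -1.24 (Calr) to -0.14 (Ero1lb), and all 12 lay below the all-gene median. The 20 measured members whose matched promoter held neither had a median of -0.35, and 16 of them lay below it. Of those at least 1.5-fold lower, Calr, Dnajb11 and Pdia6 held an element and Sdf2l1 and Pdia3 did not; Hyou1 had no promoter entry in use. The difference between both sets was not tested.

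The promoters of Calr, the lowest member, and of Hspa5, the best known gene of the set and one near the median of its signal group, are printed for comparison over the 250 bases before the start. The fixed bases of the ERSE are in capitals, on the opposite strand in Calr and on the gene's own strand in Hspa5, where it stands nearer to the start.
Calr (GRCm38.p6, chr8:84846932-84847181, minus strand): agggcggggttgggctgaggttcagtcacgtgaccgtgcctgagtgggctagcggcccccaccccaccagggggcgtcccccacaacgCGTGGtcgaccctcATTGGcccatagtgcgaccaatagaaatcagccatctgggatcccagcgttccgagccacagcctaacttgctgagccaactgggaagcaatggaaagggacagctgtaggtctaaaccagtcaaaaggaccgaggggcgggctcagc
Hspa5 (GRCm38.p6, chr2:34771840-34772089, plus strand): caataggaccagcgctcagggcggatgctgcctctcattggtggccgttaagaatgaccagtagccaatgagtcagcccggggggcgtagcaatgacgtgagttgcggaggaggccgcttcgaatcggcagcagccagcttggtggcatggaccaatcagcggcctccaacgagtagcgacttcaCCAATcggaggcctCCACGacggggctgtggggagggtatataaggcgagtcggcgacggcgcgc
Each promoter held 1 such match. The Calr match lay 144 to 162 bases before the start and the Hspa5 match 47 to 65 bases before it.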

How the data were processed

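Liver RNA of 1 knockout and 1 wild type sample was labelled with Cy3 and hybridised to 1-colour Agilent mouse arrays, both on 1 slide. Per the file headers, spot values are intensities from Agilent Feature Extraction, which subtracted background and detrended them. Its version is 10.7.1.1 there and 9.5.1.1 in the submitters' processing notes. A value table deposited by the authors is in linear intensities too, with a median of 45.9 in both columns and Spearman correlations of at least 0.9999 with the scanner values, as quantile normalization gives. Its normalization is not given in the sources used here.

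Control spots and spots marked as outliers (190 on the knockout and 183 on the wild type array) were left out, and 0 were saturated. The deposited signals were scaled by each array's 75th percentile, log2-transformed and averaged over copies of a probe. Measured probes had 50% or more of their kept spots well above background, and genes are averages of their probes measured on both arrays. Genes were taken by the files' gene names, and a RefSeq table of GRCm38.p6 held 51 of the 54 member probes by accession and gave 0 other probes to a member. Probe positions are in mm9. A bound ("at least") divides the bright level by that of the dim probe or by the lowest level above background on that array, whichever was larger.

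The members, lists and folds were chosen with earlier results of these data known. All members are named, and in each list of other genes up to 4 past 1.5-fold with the greatest difference, besides Eif2ak3 and Atf6b. Mbtps1, Ppp1r15a and Ppp1r15b were named after their values were seen. One of the cell type marker lists is not reported here. No test was possible with 1 array per group, and precision is limited by having 2 arrays. The counting was tested on simulated data. Tools were Python 3.11.15, pandas 2.3.3, statsmodels 0.14.6 (loess, span 0.3), R 4.3.3 and limma 3.58.1 (normexp, offset 50).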

Additional observations from a re-analysis of the deposited data

How the results depend on the processing

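The gap between the median of the ER genes and that of all genes kept its sign under all 9 alternatives. Median centring and E1A spike-in scaling could not change it, since they add a constant to every gene. The deposited value table nearly repeated quantile normalization, with gaps of -0.2029 and -0.2034. Without the filter on dim probes the gap was -0.1321, and 26 of 41 members lay below the all-gene median. The median of the ER genes was -0.2232 under quantile normalization, -0.2205 under loess, -0.2234 in the deposited value table and 0.3809 under E1A spike-in scaling, where the sign turned because the scaling adds a constant to every gene. That scaling left 0 ER genes at least 1.5-fold lower and 10 higher, and put Pdia3 at 0.01176 and Pdia6 at 0.1396. The count at least 1.5-fold higher was 1 under quantile normalization, loess, no filter on dim probes and the deposited value table. Calr, Dnajb11, Sdf2l1 and Pdia3 were at least 1.5-fold lower in 9 of 10 settings, Hyou1 in 8 of the 9 that measured it and Pdia6 in 4. Calr, Sdf2l1, Pdia3 and Hyou1 have a single probe each. The settings on dim probes and on the brightest probe could drop such a gene but not change its value. These counts are therefore not of independent settings. No paired analysis was possible because each group had 1 array, and no replicate could be left out.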
